A study of Mus musculus with 35 samples.

Results

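The creatine cycle genes were a set of 8 genes. They serve creatine synthesis (Gatm, Gamt), uptake (Slc6a8), phosphate transfer (Ckb, Ckm, Ckmt1, Ckmt2) and phosphocreatine hydrolysis (Alpl). The set was chosen by name, and it and the gene and miRNA lists below were chosen with earlier results of these data known. All 8 were among the 18947 genes of the mRNA table that compared interscapular brown fat (iBAT) with epididymal white fat (eWAT). The mRNA came from 4 iBAT and 4 eWAT samples of male C57BL/6J mice at 15 weeks of age. A separate miRNA assay covered 3 libraries each of iBAT, eWAT, mWAT, iWAT, aWAT and cWAT from male C57BL/6J mice at 13 weeks, and 9 further samples of Argonaute-bound RNA were not analysed here. No treatment or mutation was named for the iBAT and eWAT animals, and the groups differ by depot. The labels do not say that libraries of a depot came from separate animals, so p-values measure the spread between these samples, which may be technical. They do not spell out cWAT, and the protocol mentions inguinal fat of cold-housed mice without tying it to a depot name.

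Creatine is made from arginine and glycine: Gatm forms guanidinoacetate, and Gamt methylates it with a methyl group from S-adenosylmethionine. Creatine kinases pass phosphate between ATP and creatine, with muscle and brain types in the cytosol and sarcomeric and ubiquitous types in the space between the mitochondrial membranes. In mouse brown fat, a cycle in which phosphocreatine is made and hydrolysed has been described as a heat source beside Ucp1, with Ckb and Alpl named as its enzymes, while skeletal muscle is known for high Ckm and Ckmt2.

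The following values are given for each mRNA, all from the authors' deposited table or computed from it. The log2 fold change is iBAT over eWAT, the base mean is the mean normalised count over all samples, and a gene was called when its adjusted p was under 0.05. Values of single mRNA libraries were not at hand, so the spread within a depot is seen only through the standard error (SE), and the depth of these libraries is unknown. The 2 depot means implied by a base mean and its fold change, assuming 4 libraries a depot and a fold change that is the ratio of the depot means, are given as levels without an error. Levels are not compared between genes, since no transcript lengths were used.

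Of the 8 genes, 3 were higher in iBAT (Ckmt2, Ckm, Slc6a8), 4 were lower (Gamt, Ckmt1, Ckb, Gatm) and 1 (Alpl) was not called in the authors' deposited table. Among all 18947 genes 48% were called, 20.9% higher and 27.1% lower, so that a call alone sets none of these genes apart. Their median log2 fold change was 0.01, beside -0.10 over all genes, and the fold changes spread from -2.74 to 12.00 per the authors' deposited table. Centring fold changes on the median of all genes, and testing each against its SE, left 3 of the 8 genes higher and 2 lower, and over all genes 4246 higher and 4008 lower. Ckb and Gatm lost their calls in that setting. Both kept them when fold changes were tested against their SE without centring, and when they were centred but the z of the deposited p-value was scaled with the fold change, a setting chosen after seeing the data. In bulk samples such as these, fewer cells of a type and less RNA per cell cannot be told apart.

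**Figure D1:**
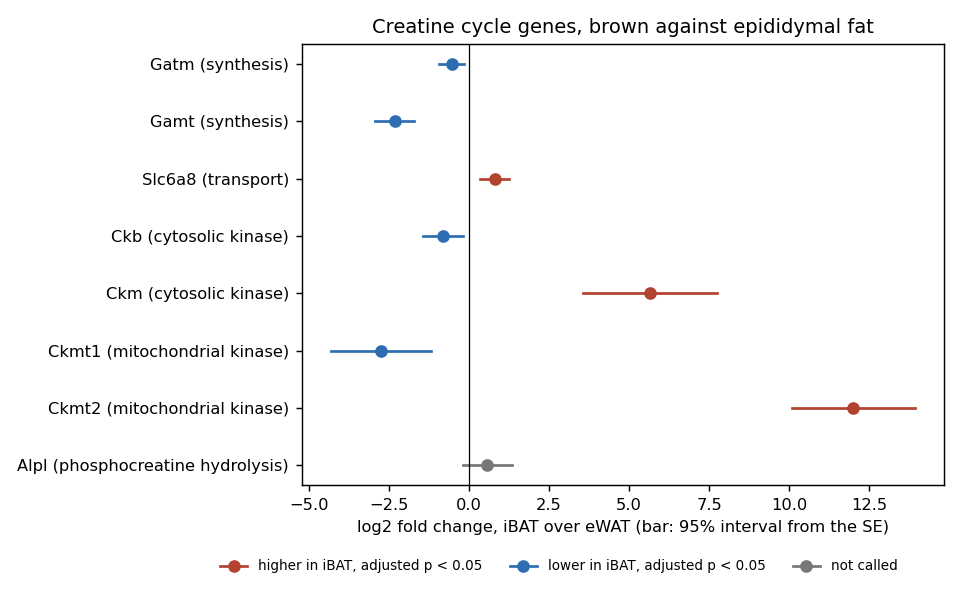
Log2 fold change in mRNA (iBAT over eWAT, horizontal axis) of the 8 creatine cycle genes (rows, by role), with 95% intervals computed from the SE. Ckm at 5.64 and Ckmt2 at 12.00 lie to the right of the other 6 genes, which lie between -2.74 and 0.80.

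Both synthesis genes were lower in iBAT. Gamt (ENSMUSG00000020150, GRCm38 chr10:80258151-80261025), the methyltransferase that completes creatine, had an implied mean of 193 normalised counts in iBAT and 964 in eWAT. Its log2 fold change was -2.32 ± 0.30 (SE; 95% interval -2.92 to -1.73), or 3.31-fold to 7.55-fold lower, with an adjusted p of 4.31e-14 per the authors' deposited table. Gatm (ENSMUSG00000027199, chr2:122594473-122611277), which makes guanidinoacetate, differed less, with an implied mean of 111 in iBAT and 161 in eWAT. Its log2 fold change was -0.54 ± 0.20 (interval -0.92 to -0.16; adjusted p = 0.0120 per the authors' deposited table). The intervals of the pair do not overlap, and the difference between them was not tested. Centred and tested against its SE, Gatm was at -0.44 with an adjusted p of 0.0525, and with the deposited z scaled instead its adjusted p was 0.0429. Gamt was called in both settings.

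The uptake gene was higher in iBAT. Slc6a8 (ENSMUSG00000019558, chrX:73673133-73682502), the sodium- and chloride-dependent creatine transporter, had an implied mean of 1842 in iBAT and 1055 in eWAT. Its log2 fold change was 0.80 ± 0.23 (interval 0.34 to 1.26), a 1.75-fold difference with an adjusted p of 0.00131 per the authors' deposited table. Synthesis and uptake genes therefore had opposite signs in this comparison.

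The cytosolic kinases differed in direction. Ckm (ENSMUSG00000030399, chr7:19411094-19421583), the muscle type, had an implied mean of 10821 in iBAT and 217 in eWAT. Its log2 fold change was 5.64 ± 1.07 (interval 3.55 to 7.73), or 49.8-fold with an interval of 11.7 to 212, and its adjusted p was 4.38e-08 per the authors' deposited table. It ranked 143 from the highest of all fold changes. Ckb (ENSMUSG00000001270, chr12:111669355-111672338), the brain type and the kinase assigned to the brown-fat cycle in mice, was lower in iBAT, with an implied mean of 1861 there and 3254 in eWAT. Its log2 fold change was -0.81 ± 0.31 (interval -1.42 to -0.19; adjusted p = 0.0166 per the authors' deposited table). Centred, it was at -0.71, with an adjusted p of 0.0537 against its SE and 0.037 from the scaled z of the deposited p-value.

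The mitochondrial kinases also had opposite signs. Ckmt2 (ENSMUSG00000021622, chr13:91853386-91876923), the sarcomeric type, had an implied mean of 1751 in iBAT and 0.427 in eWAT. Only 0.222% of all genes had a larger absolute fold change, and Ckmt2 ranked 12 from the highest. Its 95% interval of 10.07 to 13.93 on the log2 scale corresponds to 1076-fold to 15619-fold higher in iBAT. Since the eWAT mean is below 1 normalised count, the size of that fold rests on very few reads. Ckmt1 (ENSMUSG00000000308, chr2:121357773-121363737), the ubiquitous type, had an implied mean of 6.49 in iBAT and 43.4 in eWAT, and its base mean was the lowest of the 8 genes. It was 6.69-fold lower in iBAT (interval 2.26 to 19.8), with an adjusted p of 0.00022 per the authors' deposited table.

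Alpl (ENSMUSG00000028766, chr4:137741731-137796384), the tissue-nonspecific alkaline phosphatase that has been named as a phosphocreatine hydrolase in mouse thermogenic fat, was not called. Its implied mean was 939 in iBAT and 633 in eWAT. Its log2 fold change was 0.57 ± 0.39 (adjusted p = 0.187 per the authors' deposited table), and its interval of -0.19 to 1.33 leaves room for a value below 0 as well as for a fold above that of Slc6a8.

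**Figure D2:**
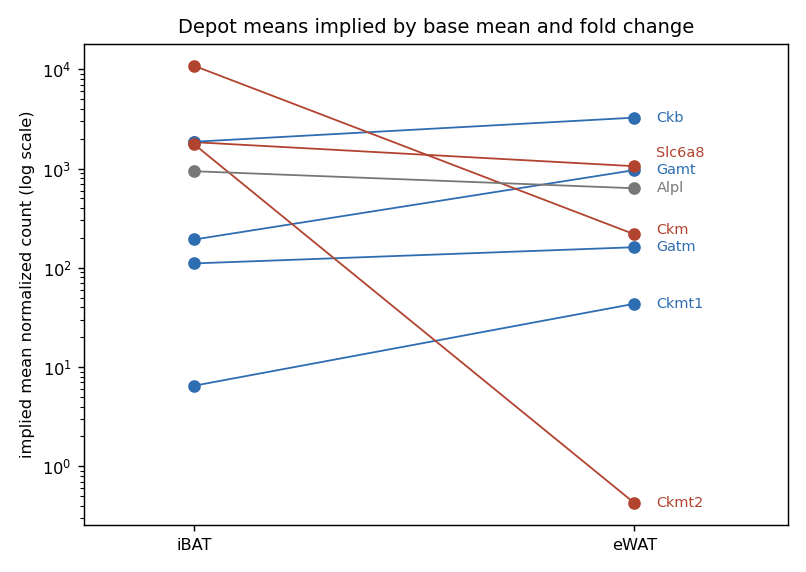
Mean normalised count (log axis) implied for iBAT (left) and eWAT (right) for each of the 8 genes, joined by a line (red, higher in iBAT; blue, lower; grey, not called). Ckmt2 goes with 1751 in iBAT and 0.427 in eWAT, the steepest line, and Ckm with 10821 and 217.

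The standard errors of several of the 8 genes were large for genes of their level. For Ckm, 99.6% of the 1905 genes with a base mean within 2-fold had a smaller SE (median 0.20). For Ckmt2 the share was 99.2% of 5001 genes (median 0.21), for Alpl 93.7% of 4973 and for Ckb 90.1% of 3673. With size factors near 1, counting error alone at the implied means would give Ckmt2 an SE of 1.10, beside 0.98 per the authors' deposited table. For Ckmt1, the fourth kinase, the share was 69.2% of 2109 genes (median 0.64). Gatm lay at the other end, since only 3.57% of 2523 genes of its level had a smaller SE.

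The DNA around the starts of 3 kinases, Ckm, Ckmt2 and Ckb, is shown as examples. Ckm and Ckmt2 had the largest fold changes of the set, and Ckb had the opposite sign beside Ckm. Ckmt1 likewise had the opposite sign beside Ckmt2, with a larger fold change than Ckb (log2 -2.74), but its windows are not printed. RefSeq windows (GRCm38.p6) of 300 bases, 250 before the start and 50 after it, were found for 7 of the 8 genes, all but Slc6a8. Capitals mark the E-box CANNTG, the letters read by muscle bHLH factors such as MyoD among many others. The pattern was searched on both strands, and any CAGCTG found is one of its matches.
Ckm, chr7:19410844-19411143, plus strand: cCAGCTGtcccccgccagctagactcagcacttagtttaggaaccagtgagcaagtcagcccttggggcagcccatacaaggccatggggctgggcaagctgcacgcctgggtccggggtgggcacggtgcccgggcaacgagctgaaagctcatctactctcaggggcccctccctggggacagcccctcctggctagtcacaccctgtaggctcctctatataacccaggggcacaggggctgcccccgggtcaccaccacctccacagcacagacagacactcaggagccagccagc
Ckmt2, chr13:91876836-91877135, minus strand: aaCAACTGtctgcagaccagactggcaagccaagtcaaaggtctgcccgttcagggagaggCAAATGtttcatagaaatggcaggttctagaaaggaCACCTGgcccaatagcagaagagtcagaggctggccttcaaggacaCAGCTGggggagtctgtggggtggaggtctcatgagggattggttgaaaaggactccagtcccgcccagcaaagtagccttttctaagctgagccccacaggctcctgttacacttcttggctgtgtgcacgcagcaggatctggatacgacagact
Ckb, chr12:111672289-111672588, minus strand: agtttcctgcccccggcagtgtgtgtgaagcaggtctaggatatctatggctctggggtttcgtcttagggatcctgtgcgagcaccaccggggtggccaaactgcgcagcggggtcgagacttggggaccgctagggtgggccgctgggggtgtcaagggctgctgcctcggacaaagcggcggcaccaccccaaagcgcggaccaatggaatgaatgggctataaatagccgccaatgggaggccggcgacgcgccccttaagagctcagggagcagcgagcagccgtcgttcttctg
The Ckmt2 window held 4 matches, the first bases of which lie at -248, -189, -153 and -107 from the start. The Ckm window held 1 match, at -249, which is the CAGCTG form, and the Ckb window held 0. Windows not printed also held CANNTG: the first of Ckmt1 at -1, Gatm at -71, Gamt at 3, and both windows of Alpl. The Ckmt1 match, and the match at -176 in the first Alpl window, are the CAGCTG form. Matches thus lay in genes called higher, called lower and not called. Among 32851 RefSeq windows of this length 72.3% held at least 1 CANNTG and 16.3% a CAGCTG, so a match in a single window is common. The letters TATAAA, which 13.6% of windows held on either strand, stood at -28 in the Ckb window in the direction of the gene. On the opposite strand they stood at -31 in the first of 2 Ckmt1 windows and at -192 in the second of 2 Alpl windows. AAGGTCA, the letters read by estrogen-related receptors, was held on either strand by 4.72% of windows and by 1 of the windows of these genes, the first of Ckmt1, on the opposite strand. A match is a run of letters, and no binding was measured.

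Genes listed for the handling of arginine, glycine and methyl groups, on which creatine synthesis draws, had calls in both directions. Some of them use these precursors up, such as Arg2 and Gldc, so their direction does not give the supply for creatine. Of 36 listed genes 35 were measured, of which 7 had a call toward iBAT, 13 toward eWAT and 15 neither, with a median log2 fold change of -0.32. Calls toward iBAT were thus about as frequent as the 20.9% over all genes, and calls toward eWAT were more frequent than the 27.1% over all genes. Lowest were Arg2, the mitochondrial arginase (-4.82 ± 0.77), and Gldc, a subunit of the glycine cleavage system (-4.47 ± 1.24), per the authors' deposited table. Psat1 (-3.99 ± 0.23) and Phgdh (-3.13 ± 0.34), which make serine, were also lower per the authors' deposited table. Highest was Ahcyl1, a relative of the S-adenosylhomocysteine hydrolase (3.07 ± 0.15), followed by Shmt1, which interconverts serine and glycine in the cytosol (2.90 ± 0.17), per the authors' deposited table. Dld, the dihydrolipoamide dehydrogenase shared by several mitochondrial complexes (2.63 ± 0.14), and Adk, the adenosine kinase (1.48 ± 0.28), were also higher per the authors' deposited table.

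Of the 5 other carriers listed for creatine or guanidinoacetate, 2 were called toward iBAT and 3 toward eWAT (median -1.51). Those calls stand beside 20.9% of all genes called higher and 27.1% called lower. Slc16a12, a creatine transporter of the monocarboxylate family, was lower at -4.05 ± 0.22 per the authors' deposited table. Slc6a13, a GABA and taurine transporter of the family of Slc6a8, was lower at -4.29 ± 0.39, and Slc16a9 was lower at -1.51 ± 0.23, per the authors' deposited table. Slc22a2, an organic cation transporter, was higher at 2.17 ± 0.62 per the authors' deposited table. Slc6a8 thus moved in the other direction from 3 of the 5.

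Enzymes and channels that work beside the kinases on energy phosphates were mostly higher in iBAT. Of 18 measured genes of 19 listed, 12 were called toward iBAT, 2 toward eWAT and 4 in neither direction (median 0.92). Over all genes 20.9% were called higher and 27.1% lower. Ampd1, the AMP deaminase known from skeletal muscle, had the largest value (11.50 ± 1.32) per the authors' deposited table. Its implied mean was 831 in iBAT and 0.287 in eWAT, so, like that of Ckmt2, this fold rests on very few eWAT reads. Ak1, the cytosolic adenylate kinase (2.78 ± 0.16), Ampd2 (2.22 ± 0.18) and Vdac1, a channel of the outer mitochondrial membrane (1.50 ± 0.14), were higher per the authors' deposited table. Nme4, a mitochondrial nucleoside diphosphate kinase (-1.57 ± 0.35), and Ak5, an adenylate kinase (-1.55 ± 0.65), were lower per the authors' deposited table.

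Of 8 genes listed with Alpl as alkaline phosphatases or genes of phosphate handling in bone, 5 were measured. Of these, 2 were higher, 0 lower and 3 not called, beside 20.9% of all genes higher and 27.1% lower. Phospho1, a phosphatase of phosphoethanolamine and phosphocholine, was higher at 5.83 ± 0.21 per the authors' deposited table. Ank, a pyrophosphate exporter, was higher at 2.37 ± 0.18 per the authors' deposited table.

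**Figure D3:**
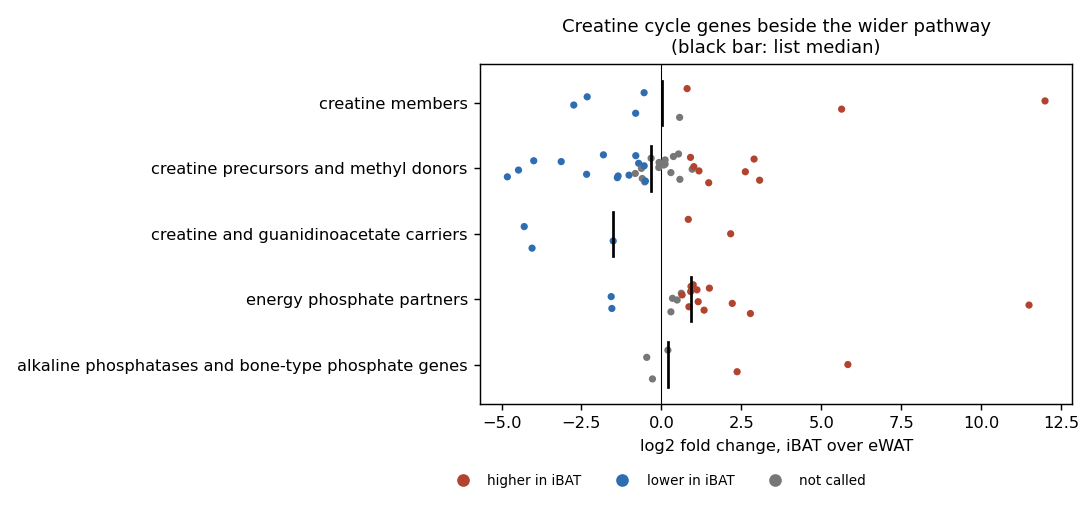
Log2 fold change in mRNA (iBAT over eWAT) of the creatine cycle genes (top row) and of 4 lists of related genes, 1 point a gene, coloured by call. The black bars mark medians of 0.01, -0.32, -1.51, 0.92 and 0.20 from top to bottom.

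Markers of skeletal muscle moved with the depots, and their part in the values of Ckm and Ckmt2 was not tested. All 28 listed markers were measured and all 28 were higher in iBAT, beside 20.9% of all genes. Their log2 fold changes were 1.26 to 17.69, with a median of 6.72. Their implied means summed to 219178 normalised counts in iBAT and 7808 in eWAT. In eWAT 7 of the 28 had an implied mean under 10, the lowest being Myh4, a fast myosin heavy chain, at 47341 in iBAT and 0.224 in eWAT. The others lowest in eWAT included Atp2a1, the calcium pump of the sarcoplasmic reticulum, at 21370 in iBAT and 7.51 in eWAT. At the other end, Des, the intermediate filament that smooth muscle also makes, was higher by 1.26 ± 0.45 per the authors' deposited table. Other markers also had a clear signal in eWAT, such as Myl1, with an implied mean of 11101 in iBAT and 1509 in eWAT. Acta1 had 24161 in iBAT and 724 in eWAT. The median implied mean of the list in eWAT was 24.3.

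Brown adipocyte markers moved in the same direction. All 25 were higher in iBAT, beside 20.9% of all genes, with log2 fold changes of 1.92 to 15.87 and a median of 5.52. Their implied means summed to 548896 in iBAT and 9530 in eWAT. The lists of muscle and brown fat therefore cannot be told apart by direction in this comparison. Which of their genes are made in both tissues was not examined, so the 2 lists may not be separate measures.

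Within each list the 2 kinases took different places. Ckm stood below 18 and above 10 of the muscle markers, next to Acta1, skeletal actin (5.06), and Cacna1s, the calcium channel of skeletal muscle (5.86), per the authors' deposited table. Against the brown list it stood below 12 and above 13, between Ppara, a nuclear receptor of fatty acid oxidation (5.52), and S100b (5.67), per the authors' deposited table. Ckmt2 was exceeded in the muscle list by Myh4 alone (17.69), and in the brown list by Ucp1 alone (15.87), per the authors' deposited table. Next below Ckmt2 came Atp2a1 (11.47) among muscle markers and Lhx8, a homeobox gene of brown fat (11.76), among brown markers, per the authors' deposited table. Of the 28 muscle markers 2 had an SE above that of Ckm, and the list's median SE was 0.39.

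The genes with the fold changes nearest to those of Ckm, Ckmt2 and Ckb were searched among genes with a base mean within 2-fold. They are a likeness over 1 comparison of 2 depots. For Ckm, searched among 1902 genes, they were Pank1 (5.65), Ntrk3 (5.59) and Ppara (5.52) per the authors' deposited table. For Ckmt2, among 4978 genes, they were Cpn2 (10.75), Elovl3, a fatty acid elongase of brown fat (9.76), and Myl2, a myosin light chain of slow and cardiac muscle (9.48), per the authors' deposited table. For Ckb, among 3663 genes, they were Leprot (-0.81), Sh3glb2 (-0.81) and Rpl14-ps1 (-0.80) per the authors' deposited table.

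The remaining marker lists stand beside 20.9% of all genes called higher and 27.1% called lower. White adipocyte markers were lower in 10 of 11, mesothelial markers in 10 of 10, macrophage markers in 10 of 10 and fibroblast markers in 10 of 10, with medians of -3.54, -7.63, -1.72 and -1.17. Epididymis and epithelial markers were lower in 15 of 16 measured (median -12.48), and their implied means summed to 67.3 in iBAT and 105807 in eWAT. Smooth muscle markers were divided, with 4 higher and 6 lower (median -1.31). Nerve markers had 5 higher and 2 lower of 9 (median 1.22). Endothelial markers had 2 higher and 3 lower of 10, shares near those of all genes. The part of these cell types in the lower Gamt, Gatm, Ckb and Ckmt1 was not tested.

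**Figure D4:**
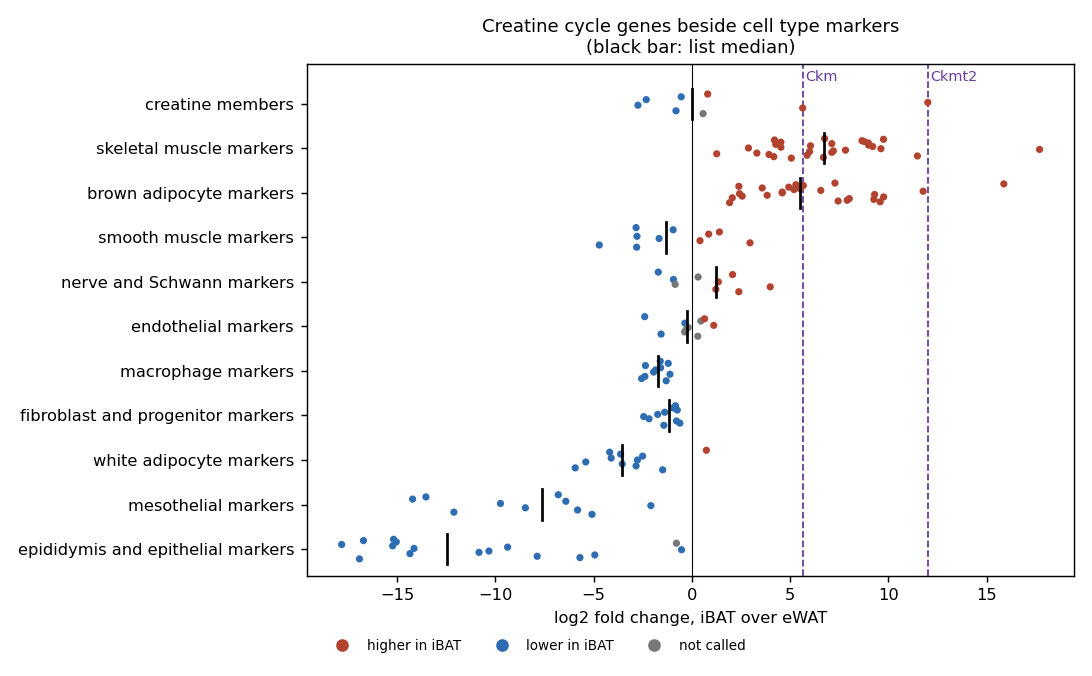
Log2 fold change in mRNA (iBAT over eWAT) of the creatine cycle genes (top row) and of 10 lists of cell type markers, 1 point a gene, with black bars at the medians and dashed lines at Ckm (5.64) and Ckmt2 (12.00). The 28 muscle and 25 brown adipocyte markers lie to the right of 0, and both dashed lines cross the spans of these 2 lists.

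Muscle miRNAs gave values for each library of the 2 depots, in other samples than those of the mRNA. MicroRNAs are short RNAs that repress mRNAs matching their seed, bases 2 to 8, and several are made almost entirely in striated muscle. Mature sequences from RefSeq (GRCm38.p6) were found for the following 3 of those that were tested, with the seed in capitals, and their seeds differ from one another.
mmu-miR-206-3p, chr1:20679055-20679076, plus strand: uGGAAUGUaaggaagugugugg
mmu-miR-133b-3p, chr1:20682834-20682855, plus strand: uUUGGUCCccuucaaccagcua
mmu-miR-499-5p, chr2:155622893-155622913, plus strand: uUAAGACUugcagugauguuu
Of 9 listed muscle miRNAs 7 were in the miRNA table, and 6 passed the filter on low counts. Among 436 tested miRNAs 55% were called and 25.5% were higher in iBAT by limma at an adjusted p under 0.05. In 32.1% of them every iBAT library lay above every eWAT library. All 6 tested muscle miRNAs were higher. The seventh, miR-208b-3p, had 0, 18.5 and 0 normalised counts in iBAT 1 to 3 and was at 0 in every eWAT library.

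The most abundant was miR-1a-3p, with 11244, 18215 and 10084 normalised counts in iBAT 1 to 3, against 860, 797 and 832 in eWAT. Every iBAT library lay above every eWAT library, with means of 13181 ± 4398 in iBAT and 830 ± 31.7 in eWAT (SD, n = 3 each). The difference on the log2(normalised count + 1) scale was 3.94 ± 1.17 (SE) by limma, with an adjusted p of 0.0110. The SEs of the miRNA differences come from a fit of all depots together. They therefore also carry the spread of other depots, such as iWAT, where miR-1a-3p ranged from 378 to 16537. In a limma fit of the iBAT and eWAT libraries alone the difference was 3.94, with an adjusted p of 7.74e-06. For miR-206-3p, which is confined largely to skeletal muscle, the values were 106, 218 and 121 in iBAT and 5.17, 2.56 and 1.19 in eWAT. These groups did not overlap either, and the difference was 5.29 ± 1.50 by limma (adjusted p = 0.00827). The eWAT values stand for only 8, 6 and 2 reads. Over the other settings run, the difference of miR-206-3p ranged from 3.555 to 5.667, so its size is uncertain.

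The 2 arms of miR-133a and its relative miR-133b-3p were higher by 3.51 to 4.33 on that log2 scale, with adjusted p-values of 0.00812 to 0.0264 by limma. In eWAT miR-133a-5p had only 3, 3 and 2 reads, and its difference ranged from 2.362 to 5.156 over the other settings run. The call of miR-133b-3p was lost in 5 of the 6 fits that left out 1 library, with differences of 3.29 to 3.58 in those 5 fits, beside 3.51 with all libraries. Those fits kept the other depots, such as iWAT, where miR-133b-3p ranged from 3.87 to 194. The lost calls therefore do not measure the spread of the iBAT and eWAT libraries alone. In a limma fit of only the iBAT and eWAT libraries, with none left out, the adjusted p of miR-133b-3p was 5e-05. For miR-499-5p, made from an intron of a slow myosin gene, the values were 81.8, 107 and 40.4 in iBAT and 11.6, 12.8 and 16.6 in eWAT. Its difference was the smallest of the 6, at 2.30 ± 0.59 by limma (adjusted p = 0.00413). The miRNA samples came from mice of 13 weeks and the mRNA samples from mice of 15 weeks, so the miRNA values describe iBAT as dissected for that assay and were not joined to those of Ckm or Ckmt2.

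**Figure D5:**
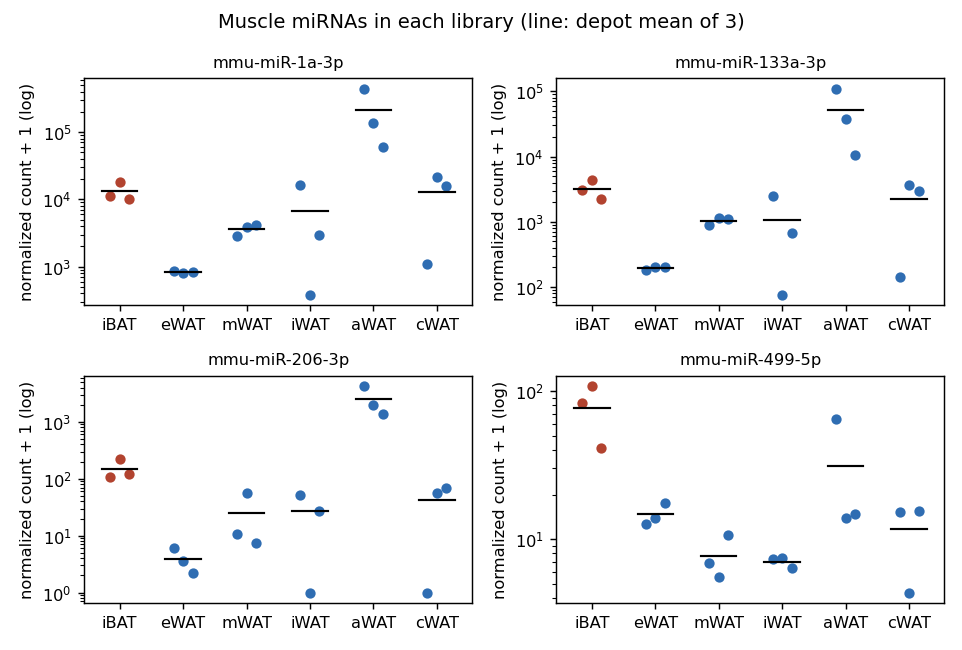
Normalised count + 1 (log axis) of 4 muscle miRNAs in each of 18 libraries by depot, with the mean of 3 libraries as a line. In all 4 panels each iBAT library (red) lies above each eWAT library, as for 32.1% of all tested miRNAs, and miR-1a-3p reaches 440919 in an aWAT library.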

How the data were processed

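The mRNA values are those of a comparison of iBAT with eWAT that the authors deposited. Its base mean is a signal, the mean of counts divided by size factors, and its fold changes and SEs are log2 values, per the file headers. Raw and adjusted p-values were deposited as well; Benjamini-Hochberg adjustment of the p-values over 18947 genes gave the adjusted ones within 2.4e-07. In 10.7% of genes p matched the ratio of fold change to SE to within 0.01 in log10 p; for the others the sources used here name no test. The header gives no direction, so it was taken from brown (Ucp1, Cidea) and white or visceral (Lep, Wt1) fat genes. Tools named without roles in the submitters' processing notes are Novoalign, DESeq, DESeq2 and kallisto 0.45.0, with builds GRCm38 and mm10. Per the labels' protocols, libraries were stranded total RNA and small RNA.

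The miRNA table holds normalised counts for 485 miRNAs in 18 libraries, a signal the authors deposited after division by size factors, beside their own log2 fold changes, p-values and, as a deposited score, their ratio to the SE. Whole reads were recovered (100% of values whole within 0.02 reads), with totals of 1293407 to 6816555 reads. Values of 0 may stand for a single read, since the smallest value was 2 reads in 12 libraries. The main test was limma 3.58.1 in R 4.3.3 (eBayes with a trend, log2(normalised count + 1), 6 depots in 1 fit, 12 residual degrees of freedom) on the 436 miRNAs kept by edgeR 4.0.16 filterByExpr. It was also run on simulated counts that had the same dispersion for every miRNA and depot. That run does not cover the unequal spread of these depots. DESeq2 1.42.0 and edgeR on recovered reads were alternatives. Libraries were tested as unpaired, and whether same-numbered libraries share a mouse is not known here.

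Ensembl IDs were matched to symbols for 18758 of 18947 genes, and coordinates are RefSeq's on GRCm38.p6. The members, gene lists and miRNA list were chosen with earlier results of these data known. Beyond the 8 members, pathway genes were named if called with an absolute log2 fold change of at least 1, up to the 4 largest in each direction. From the marker lists the lowest, median and highest fold change and the largest base mean were eligible. Neighbours were the 3 nearest fold changes within 2-fold of the base mean. Genes standing next to Ckm and Ckmt2 in a list, and genes with low or high eWAT means, were named after their values were seen.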

Additional observations from a re-analysis of the deposited data

Results flagged for a closer look

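Several muscle miRNAs, not all, were also found in depots that the iBAT and eWAT comparison does not use, with every library of that depot above the highest eWAT library. Of all 436 tested miRNAs, 21.8% lay that way in aWAT, 26.4% in mWAT and 20.2% in cWAT. In aWAT the mean normalised count was 211701 for miR-1a-3p, 52489 for miR-133a-3p, 354 for miR-133a-5p, 3699 for miR-133b-3p and 2494 for miR-206-3p. In mWAT it was 3606 for miR-1a-3p, 1032 for miR-133a-3p, 6.87 for miR-133a-5p, 64.0 for miR-133b-3p and 23.5 for miR-206-3p. In cWAT it was 12932 for miR-1a-3p. In eWAT the same means were 830 for miR-1a-3p, 197 for miR-133a-3p, 1.47 for miR-133a-5p and 2.97 for miR-206-3p, and miR-133b-3p had 8.97 to 12.3. For miR-133a-5p, mWAT 1 to 3 had 10, 5 and 3 reads, beside 3, 3 and 2 in eWAT. For miR-206-3p the reads were 10, 36 and 6 in mWAT, beside 8, 6 and 2 in eWAT. Both of these separations of mWAT from eWAT thus rest on few reads. In mWAT and iWAT miR-499-5p lay the other way. Its highest libraries there had 9.72 and 6.46, below the lowest eWAT library at 11.6. These values rest on few reads, 6, 3 and 9 in mWAT 1 to 3 and 9, 5 and 5 in iWAT 1 to 3. The share of all tested miRNAs lying below eWAT in this way was not computed, so the separation of miR-499-5p has no background beside it. No difference between these depots was tested here.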

How the results depend on the processing

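Among the 8 genes the number called lower was 4, against 2 when fold changes were centred and tested against their SE, 2 at an adjusted p under 0.01 and 2 at an absolute log2 fold change of at least 1. Gamt and Ckmt1 remained in each case. It was 4 with either change alone: testing against the SE without centring, or centring with the deposited z scaled. Of the settings run, the call of Slc6a8 was lost only with the minimum fold change. Over all genes, 2093 rather than 3965 were higher with that minimum. No library of the mRNA table could be left out, and no paired analysis was possible there because it holds no value per library. Leaving out each iBAT or eWAT miRNA library left 5 to 6 muscle miRNAs higher. Only the call of miR-133b-3p was lost, at adjusted p-values of up to 0.0706 by limma in fits that kept the other depots. All 6 were called with a replicate block, in which 247 rather than 240 miRNAs were called. Deviations of same-numbered iBAT and eWAT libraries from their depot means correlated at 0.03, -0.09 and 0.02. Such values cannot settle whether these libraries share a mouse. All 6 were also called by edgeR and DESeq2 on recovered reads, and in a fit without the aWAT libraries that was chosen after seeing the data.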

Other observations

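Libraries of the other depots spread widely in muscle miRNAs. In iWAT 1 to 3, miR-1a-3p had 16537, 378 and 2907 normalised counts. In cWAT it had 1107, 21657 and 16033, and in aWAT 440919, 134457 and 59728. For miR-499-5p, the iBAT mean of 76.3 was the highest of the 6 depots, and the aWAT mean was 30.2.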
